A study of Gossypium barbadense and Gossypium hirsutum with 8 samples.

Results

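Cotton fibre RNA from high-yielding and low-yielding inbred lines was examined through the probe sets of an Affymetrix cotton array that were designed from sequences of Gossypium arboreum. These are all probe sets whose identifier begins with GarAffx, taken without any filter on signal. There were 69 of them among 24029 probe sets, 103 Affymetrix control probe sets being left out, and they carried 56 different sequence numbers. Because 24 of the 69 shared a sequence number with at least 1 other, they are not 69 independent transcripts. The array files pair no probe set with a gene, and 0 of the 69 identifiers matched the 74561 genes of the G. barbadense annotation used here, so probe sets are given by their array identifiers and no function is assigned to any of them. For the same reason the labelled tissue was not checked against fibre marker genes.

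Each sample was fibre taken from ovules 10 days post anthesis, and each line had 1 array. The high-yielding backcross inbred lines (HY BILs 1, 2 and 3) carry the sample labels NMGA144, NMGA017 and NMGA026, and the low-yielding lines (LY BILs 1, 2 and 3) are NMGA066, NMGA095 and NMGA023. The study's design text gives the names of HY BILs 1 and 3 the other way round, which leaves the groups unchanged. The parents were SG747 (HY parent, high-yielding G. hirsutum) and Giza75 (LY parent, low-yielding G. barbadense), and the lines descend from backcrosses between these species. With 1 array per line, the spread inside a group holds differences between lines, sample preparations and arrays together, and fewer cells of a type and less RNA per cell cannot be told apart. The question of the study was which transcripts differ between high-yield and low-yield lines.

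Cotton fibres are single elongated cells of the seed coat epidermis, and at this age they are in rapid elongation. Both crop species of the cross are allotetraploids that combine an A and a D subgenome. G. arboreum is a diploid A-genome cotton, related to the donor of the A subgenome, and G. raimondii is a diploid D-genome cotton from which other probe sets of the array were designed. A probe set from a diploid can therefore bind transcripts of the matching subgenome copy and, where the probes do not distinguish the copies, of both. Whether its probes match both parents equally was not tested, so a low signal in one parent need not be a low transcript level.

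All levels below are log2(signal + 16) after quantile normalization over the 8 arrays, and differences are on that scale, which understates the change of dim probe sets. The arrays differed in brightness as deposited, with median signals of 13.5 to 26.0 in HY BILs, 13.2 to 36.3 in LY BILs, 22.3 in the HY parent and 17.0 in the LY parent. The 5′ to 3′ signal ratio of the control ss1, a measure that RNA quality can move, was 0.108, 0.408 and 0.186 in HY BILs 1, 2 and 3, 0.428, 0.324 and 0.271 in LY BILs 1, 2 and 3, 0.211 in the HY parent and 0.345 in the LY parent. Of the G. arboreum probe sets, 10 had a correlation of at least 0.7 with the array median over the 8 arrays (14.5%, against 10.8% of all probe sets) and 7 had one with the ss1 ratio (10.1%, against 4.57%). At -0.7 or below there were 5 for the array median (7.25%, against 11.1%) and 6 for the ss1 ratio (8.7%, against 5.9%).

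The G. arboreum probe sets were brighter than most of the array, but they were of mixed level. Their mean over the 8 arrays had a median of 7.64 and ran from 4.10 to 13.08, while the other 23960 probe sets had a median of 5.21. Of the 69, 49 lay above the median of all probe sets (71.0%, against 49.9% of the others), 21 above the 95th percentile (30.4%, against 5.0%) and 8 above the 99th (11.6%, against 1.0%), while 10 lay in the lowest 25% (14.5%). On single arrays the median of the G. arboreum probe sets was 2.04 to 3.02 above that of the others, on average 2.41 ± 0.31 (SD, n = 8 arrays). A signal depends on how well each probe set's own probes bind, so these levels are ranks of signal and not of transcript abundance.

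The members were of mixed probe set type. In Affymetrix naming, the ending _s_at marks probes shared by several transcripts, and _x_at marks probes that may bind unrelated ones. Of the G. arboreum probe sets, 52 were of the shared type (75.4%, against 38.6% of the others), 11 ended in plain _at and 6 in _x_at. The 52 shared ones had a median level of 8.61, against 5.82 for the 9238 other probe sets of that type. The 11 plain ones had a median of 5.04, against 4.88 for 12716 others, and with the comparison restricted to plain probe sets the excess of 2.41 became 0.16. Of these 11, 7 belong to a dim run of sequence numbers (37322 to 37330) and had a median of 4.71, while the 4 outside it had 8.29, 9.57, 11.30 and 4.44. The small excess of the plain members therefore holds that run, and type and run cannot be told apart with 4 plain members outside it. The _x_at probe sets lay the other way, at 4.86 against 5.82.

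Other source species are the nearest comparison. The 36 probe sets designed from G. barbadense had a median level of 7.45, close to that of the G. arboreum set. Those named GraAffx and Gra, from the D-genome diploid G. raimondii, had medians of 4.52 (n = 3645) and 4.61 (n = 3423). Among shared probe sets alone the medians were 8.61 for G. arboreum, 9.12 for G. barbadense (n = 19), 7.02 for the G. hirsutum sets named Ghi (n = 4010) and 4.58 for GraAffx (n = 1733). Array design and fibre RNA cannot be told apart in these levels, and no test was made of them.

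Dim members were frequent in a run of neighbouring numbers. The longest run of consecutive sequence numbers, 37322 to 37330, held 18 probe sets; this run was singled out after its values were seen. These 18 had a median level of 4.64 and reached at most 6.21, while the other 51 had a median of 8.72. In the identifiers, S1 and A1 stand for designs on the sense and the antisense orientation of a sequence. The 11 A1 probe sets had a median of 4.39 against 8.54 for the 58 S1 ones. On the rest of the array the medians were 4.67 for A and 5.88 for S designs. Of the 11 A1 members 8 lie in the same run (median 4.30), so the dim run and the dim orientation are largely the same probe sets. The 3 outside it had levels of 5.73, 8.73 and 8.68, and the 10 S1 members inside the run had a median of 5.29.

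The 4 brightest probe sets varied little between the 6 BILs. Their SDs over the BILs were 0.13 to 0.21, against a median of 0.41 for the other probe sets above the array's median. GarAffx.14950.1.S1_s_at, the brightest, had levels of 13.19, 13.00 and 12.97 in HY BILs, 13.03, 13.33 and 13.09 in LY BILs, 13.15 in the HY parent and 12.89 in the LY parent. Its deposited signals ran from 7368.6 to 12351.9. GarAffx.29986.1.S1_s_at averaged 13.03 ± 0.12 in HY BILs and 12.99 ± 0.16 in LY BILs (SD, n = 3 each), with 12.94 in the HY parent and 13.19 in the LY parent.

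GarAffx.28288.1.S1_s_at averaged 12.78 ± 0.22 in HY BILs and 12.65 ± 0.23 in LY BILs, and the parents had 12.54 (HY) and 13.08 (LY). For all 4 of the brightest the BIL groups overlapped. GarAffx.21877.1.S1_s_at was the exception among the 4 between the parents, with 11.80 in the HY and 12.79 in the LY parent, a difference of -0.99; the lines had 12.48 ± 0.10 in HY BILs and 12.74 ± 0.14 in LY BILs (SD, n = 3 each).

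Of the members brighter than the array's median, GarAffx.27377.1.S1_s_at had the smallest spread over the 6 BILs, with levels of 11.25, 11.34 and 11.39 in HY BILs and 11.24, 11.44 and 11.28 in LY BILs (SD 0.08, n = 6). Over all members of that level the median SD over the BILs was 0.41 (n = 49), and it was 0.41 for the 11966 others above the array's median. The 3 probe sets most like the brightest one across the 8 arrays were GarAffx.19282.1.S1_s_at (r = 0.83), GarAffx.19282.1.S1_x_at (r = 0.80) and GarAffx.37325.1.A1_x_at (r = 0.64). All 3 were dim, with means of 4.98, 4.45 and 4.14, and they were picked as the highest r among all members. LY BIL 2 was the highest array for the brightest member (13.33) and for both probe sets of 19282 (7.08 and 5.78). The part of that array in these r was not tested. The deposited signals of GarAffx.37325.1.A1_x_at were only 0.3 to 3.4.

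Probe sets that share a sequence number give a check of repeatability within an array. Pairs in which both lay above the 55th percentile followed each other over the 8 arrays: r was 1.00 for GarAffx.24961.1.S1_s_at with GarAffx.24961.2.S1_s_at, 0.96 for the pair of 24670, 0.93 for that of 19281 and 0.83 for that of 37324. This limit was not planned, and it falls just under the pair of 37324, whose lower member lay at percentile 55.6. That pair belongs to the dim run of numbers 37322 to 37330. The pair of 19282, with 1 member at the 25th percentile, also had r = 0.93. Among the 11 pairs of the dim numbers 37325 to 37330, r ran from -0.78 to 0.71. Where both were of the same orientation, r was 0.39 (A1) and 0.71 (S1) for 37325 and 0.64 (A1) for 37326. Pairs of an A1 with an S1 design ran from -0.78 to 0.35, and opposite orientations are no repeat measurement. The brighter pairs and that of 19282 were all S1 with S1, so level and orientation cannot be told apart here. The points of each r share the array and its RNA, and such a pair may hold some of the same probes.

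Between HY and LY BILs (3 against 3), no G. arboreum probe set passed the test, and every difference of at least 2-fold was toward a lower level in the HY lines. Of the 69, 0 had an adjusted p under 0.05 in limma, as for the whole array (0.0% called; adjusted p = 0.988 for the lowest member). At an unadjusted p under 0.05 there were 6 (8.7%, against 3.24% of all probe sets), and with a 2-fold difference as well there were 3, all lower in HY BILs (4.35%, against 0.383% of all in that direction, 0.0583% in the other and 0.441% in both). These 3 were GarAffx.24670.1.S1_at, GarAffx.24670.1.S1_s_at and GarAffx.14011.1.S1_s_at, so 2 sequence numbers. The count of 3 became 0 without HY BIL 1 or without HY BIL 3, 1 without LY BIL 1, 7 without HY BIL 2 (6 lower and 1 higher) and 11 without LY BIL 3 (10 lower and 1 higher). Shares of all probe sets for these counts are not given here. By size alone, the share of all at least 2-fold lower, 0.778%, was 0.878% without HY BIL 1 and 0.491% without HY BIL 3. It was 0.266% without LY BIL 1, 2.31% without HY BIL 2 and 2.58% without LY BIL 3. The share at least 2-fold higher, 0.104%, was 0.853% without HY BIL 2 and 1.12% without LY BIL 3.

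The plain size of the difference showed the same side. At least 2-fold, 7 of the 69 were lower in HY BILs (10.1%, against 0.778% of all probe sets) and 0 were higher (against 0.104%). The 7 came from 5 sequence numbers, 14011, 19282, 24670, 24961 and 29310. Among probe sets above the median level 6 of 49 were lower (12.2%, against 1.47% of all there) and 0 were higher (against 0.191%). The centre of the set did not move with them: the median difference was -0.03 over the 69 and 0.02 over the others, with 33 members above 0 (47.8%, against 53.5% of all) and 36 below (52.2%, against 46.5%).

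Single arrays decided how many members were at least 2-fold lower. Leaving out 1 array turned 7 into 2 without HY BIL 3 (0.491% of all probe sets), 2 without LY BIL 1 (0.266%), 10 without HY BIL 2 (2.31%) and 13 without LY BIL 3 (2.58%). Without HY BIL 2, and likewise without LY BIL 3, 1 member was at least 2-fold higher in HY BILs, against 0.853% and 1.12% of all probe sets. With a pseudocount of 1, 14 were lower and 1 was higher, against 6.97% and 5.68% of all. On the deposited values without normalization 13 were lower (against 2.88% of all) and 0 higher, where the median difference of all probe sets was -0.18. The number of arrays limits the precision of all these values.

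GarAffx.24670.1.S1_s_at had levels of 9.09, 10.59 and 8.82 in HY BILs and 11.77, 10.04 and 10.79 in LY BILs. HY BILs 1 and 3 lay below every LY line, but HY BIL 2 lay above LY BIL 2, so the groups overlapped. The difference was -1.37 ± 0.53 (SE; limma, unadjusted p = 0.0284, adjusted p = 0.988). The parents had 9.78 (HY) and 10.34 (LY), and HY BILs 1 and 3 were below both.

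GarAffx.24670.1.S1_at, on the same sequence number, had 8.41, 9.98 and 8.36 in HY BILs and 10.90, 9.34 and 10.26 in LY BILs, a difference of -1.25 ± 0.51 (SE; limma, unadjusted p = 0.0358, adjusted p = 0.988). The order of the 6 lines was that of its partner. Without LY BIL 1 the differences of the pair were -0.91 for the shared and -0.88 for the plain probe set. Across the 8 arrays r with the ss1 ratio was 0.82 for the shared and 0.85 for the plain probe set, and the part of that ratio in the difference was not tested.

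GarAffx.14011.1.S1_s_at had 5.72, 6.76 and 5.81 in HY BILs and 9.05, 6.27 and 7.38 in LY BILs (group means 6.10 ± 0.58 and 7.57 ± 1.40, SD, n = 3 each). LY BIL 1 stood highest by a wide margin and LY BIL 2 lay inside the HY range. The difference was -1.47 ± 0.63 (SE; limma, unadjusted p = 0.0438, adjusted p = 0.988), and without LY BIL 1 it was -0.73. Its r with the ss1 ratio was 0.72, and the part of that ratio was not tested.

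On the other side, 1 member had an unadjusted p under 0.05. GarAffx.19281.1.S1_x_at had 9.77, 8.86 and 9.61 in HY BILs and 8.22, 8.60 and 8.98 in LY BILs, with 9.66 in the HY and 9.06 in the LY parent. HY BIL 2 lay just below LY BIL 3, so the groups overlapped, and the difference was 0.81 ± 0.34 (SE; limma, unadjusted p = 0.0385, adjusted p = 0.988). Its partner GarAffx.19281.1.S1_at differed by 0.49 ± 0.36. The pair ran against the ss1 ratio (r = -0.87 and -0.82) and against the array median (r = -0.72 and -0.81), and the part of either in the difference was not tested.

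Groups without overlap were no more frequent here than on the array. They occurred for 3 probe sets with HY BILs higher (4.35%, against 4.63% of all) and 2 with HY BILs lower (2.9%, against 3.02%). The higher ones differed little. GarAffx.27047.1.S1_s_at had 10.34, 10.37 and 10.52 in HY BILs against 10.13, 10.01 and 10.14 in LY BILs, a difference of 0.32 ± 0.22 (SE; limma, adjusted p = 0.988), which was 0.05 on the deposited values.

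GarAffx.32586.1.A1_s_at had 8.78, 8.68 and 8.90 in HY BILs against 8.57, 8.57 and 8.50 in LY BILs, a difference of 0.24 ± 0.26 (limma, adjusted p = 0.988). On the deposited values the difference was -0.06. The third, GarAffx.13776.1.S1_s_at, differed by 0.21 ± 0.29. On the lower side stood GarAffx.37324.1.S1_at and GarAffx.13408.1.S1_s_at, of middle rank on the array (percentiles 57.5 and 48.1 of level) but of low signal. GarAffx.37324.1.S1_at had 5.24, 5.47 and 4.89 in HY BILs against 6.07, 6.61 and 5.83 in LY BILs, a difference of -0.97 ± 0.33 (limma, unadjusted p = 0.016, adjusted p = 0.988), and its deposited signals were 10.8 to 36.5 against 24.0 to 125.2.

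GarAffx.13408.1.S1_s_at had 5.25, 4.59 and 4.91 in HY BILs against 5.87, 5.99 and 5.32 in LY BILs, a difference of -0.81 ± 0.31 (limma, unadjusted p = 0.0293, adjusted p = 0.988). Its signals were 9.3 to 14.1 in HY BILs and 14.7 to 79.2 in LY BILs. With such low signals the size depends on the pseudocount: it was -1.35 with 1 and -0.38 with 64, and for GarAffx.37324.1.S1_at -1.42 and -0.52.

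Between the parents, which have no replicate, the larger differences lay almost all on one side. At least 2-fold, 11 of the 69 were lower in the HY parent (15.9%, against 5.92% of all probe sets) and 1 was higher (1.45%, against 5.32%). The 11 came from 9 sequence numbers. Above the median level the counts were 9 of 49 lower (18.4%, against 9.95%) and 0 higher (against 9.49%). On the deposited values the split was 6 lower and 9 higher, against 2.76% and 13.2% of all, where the median of all probe sets was shifted by 0.20 toward the HY parent. With median centring it was 11 lower and 5 higher, against 4.51% and 8.89% of all, and with cyclic loess 12 lower and 1 higher, against 6.38% and 4.52%. With a pseudocount of 1 it was 13 lower (18.8%, against 18.4% of all) and 8 higher (11.6%, against 17.7%), so the share that was lower was then that of the array. The median difference was 0.03 over the 69 and 0.00 over the others.

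GarAffx.14011.1.S1_s_at was farthest apart, with 5.60 in the HY and 7.95 in the LY parent (difference -2.35; deposited signals 35.0 and 185.6). GarAffx.37202.1.S1_x_at had 5.14 in the HY and 7.19 in the LY parent (difference -2.05; signals 20.5 and 103.3). These were the only 2 members at least 4-fold apart (2.9% lower in the HY parent, against 0.82% of all), and 0 were that much higher (against 0.866%). In the lines, GarAffx.37202.1.S1_x_at had 5.94, 5.75 and 5.45 in HY BILs and 6.82, 7.26 and 5.78 in LY BILs, so LY BIL 3 lay inside the HY range while LY BILs 1 and 2 were near the LY parent.

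On the other side the differences were smaller. GarAffx.24201.1.A1_s_at had 9.01 in the HY and 8.10 in the LY parent (difference 0.91). All 6 lines lay between 8.65 and 8.96, between the parents and nearer the HY than the LY parent. GarAffx.37330.1.S1_s_at had 6.30 in the HY and 5.43 in the LY parent (difference 0.87), and its r with the array median was 0.83. The single member at least 2-fold higher in the HY parent was GarAffx.19282.1.S1_s_at, with 5.38 in the HY and 4.07 in the LY parent (difference 1.31), from deposited signals of 27.7 and 0.7 near the bottom of the scale.

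Over the 11 probe sets lower in the HY parent, the lines took different sides. HY BIL 3 was nearer the HY parent for 10 of them and HY BIL 1 for 8, while HY BIL 2 was nearer for 4. LY BILs 1, 2 and 3 were nearer the HY parent for 3, 5 and 3. Over the 1412 other probe sets lower in the HY parent by as much, the shares nearer that parent were 75.7%, 74.5% and 73.9% in HY BILs 1, 2 and 3 and 63.7%, 80.7% and 33.1% in LY BILs 1, 2 and 3. The shares of the 11 were 72.7%, 36.4% and 90.9% in HY BILs 1, 2 and 3 and 27.3%, 45.5% and 27.3% in LY BILs 1, 2 and 3. All of these counts share the parental arrays, and no test was made.

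A position was also computed for each line, where 1 is the HY parent and -1 the LY parent, as a slope over probe sets at least 4-fold apart. With 2 members it was 0.61, 0.18 and 0.77 in HY BILs and -1.37, -0.21 and -0.13 in LY BILs, group means of 0.52 ± 0.30 and -0.57 ± 0.70 (SD, n = 3 each). The difference between these means, 1.09, turned to -0.05 with a pseudocount of 1, where 9 members were 4-fold apart. Over the 12 members at least 2-fold apart, a limit chosen after seeing the data, the means were 0.32 ± 0.52 in HY BILs and -0.53 ± 0.55 in LY BILs. The 2689 other probe sets at that limit gave 0.56 ± 0.05 and 0.34 ± 0.38. At the 4-fold limit, 403 other probe sets gave 0.64 ± 0.08 in HY BILs and 0.38 ± 0.30 in LY BILs. The value of LY BIL 1 over the 12, -1.17, lies beyond the LY parent.

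With each parent added to its yield class (4 against 4), 0 of the 69 passed an adjusted p of 0.05 in limma, as for the whole array (0.0% called; lowest member adjusted p = 0.849). At an unadjusted p under 0.05 there were 14 (20.3%, against 5.71% of all). With a 2-fold difference there were 7, all lower in the high-yielding plants (10.1%, against 0.795% of all in that direction, 0.212% in the other and 1.01% in both), from 5 sequence numbers. Since SG747 and Giza75 belong to separate species, species and yield cannot be told apart between them, and the BIL arrays are those of the comparison above. The count was 3 without HY BIL 3 or without LY BIL 1, 4 without the HY parent and 5 to 8 without any other single array. For these counts no share of all probe sets is given here.

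GarAffx.14011.1.S1_s_at differed by -1.69 ± 0.50 (SE; limma, adjusted p = 0.849), with means of 5.97 ± 0.53 in high-yielding and 7.66 ± 1.16 in low-yielding plants (SD, n = 4 each). GarAffx.37202.1.S1_x_at differed by -1.19 ± 0.35 (limma, adjusted p = 0.849), with 5.57 ± 0.35 and 6.76 ± 0.68. The other 5 were the pairs of 24670 and 24961 and GarAffx.29310.2.S1_s_at, with differences of -1.26 to -1.08. The classes did not overlap for 2 members, GarAffx.37324.1.S1_at on the lower side (1.45%, against 1.14% of all) and GarAffx.32586.1.A1_s_at on the higher side (1.45%, against 1.93%).

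Some probe sets had a wide range over the 6 BILs, a measure that takes in spread within and between the yield classes. The range over the 6 BILs was at least 4-fold for 9 of the 69 (13.0%, against 4.62% of all probe sets; above the median level 16.3% of 49, against 8.92%), from 7 sequence numbers. LY BIL 1 was the highest line for all of them except GarAffx.19282.1.S1_s_at. HY BIL 3 was the lowest for all except GarAffx.14011.1.S1_s_at and GarAffx.29310.2.S1_s_at (HY BIL 1) and GarAffx.38922.1.S1_s_at (LY BIL 2). Only GarAffx.38922.1.S1_s_at thus had its lowest and highest line in 1 yield class. The 7 members at least 2-fold lower in HY BILs are all among these 9.

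A first pattern was shared by GarAffx.29310.2.S1_s_at, the pair of 24670, GarAffx.14011.1.S1_s_at and GarAffx.38922.1.S1_s_at, whose pairwise r over the 8 arrays was 0.78 to 0.97. GarAffx.29310.2.S1_s_at had 8.67, 11.07 and 9.05 in HY BILs and 11.46, 9.77 and 10.60 in LY BILs, a 6.93-fold range, with 9.64 in the HY and 10.93 in the LY parent. HY BIL 2 with LY BILs 1 and 3 stood high, and HY BILs 1 and 3 with LY BIL 2 stood low. Its r with the ss1 ratio was 0.91 and with the array median 0.49, and their part in the pattern was not tested.

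GarAffx.38922.1.S1_s_at had 9.28, 10.94 and 9.30 in HY BILs and 11.83, 8.94 and 11.01 in LY BILs, a 7.43-fold range. The same 3 lines were high, and LY BIL 2 was the lowest of all. The parents, at 9.18 (HY) and 9.61 (LY), both lay nearer the low lines, and the difference between the BIL groups was -0.75 ± 0.70 (SE; limma, adjusted p = 0.988). Its r with the ss1 ratio was 0.59.

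A second pattern set LY BILs 1 and 2 highest. GarAffx.24961.1.S1_s_at had 12.03, 12.15 and 10.46 in HY BILs and 13.37, 13.16 and 11.33 in LY BILs, with 10.37 in the HY and 11.84 in the LY parent. LY BILs 1 and 2 exceeded both parents, HY BILs 1 and 2 lay slightly above the LY parent, and HY BIL 3 lay at the HY parent. The deposited signals were 3361.6, 4904.7 and 1153.9 in HY BILs and 10721.4, 10937.9 and 2010.6 in LY BILs, and LY BILs 1 and 2 were also the 2 brightest arrays. Its r was 0.63 with the array median and 0.50 with the ss1 ratio, and their part in the pattern was not tested. The difference between the groups, -1.07 ± 0.57 (SE; limma, adjusted p = 0.988), was about as large as the SDs inside them (0.94 and 1.12, n = 3 each).

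GarAffx.37324.1.S1_s_at, far dimmer, had r = 0.94 with it, with 5.52, 5.77 and 4.22 in HY BILs and 6.40, 6.16 and 5.49 in LY BILs. GarAffx.19282.1.S1_s_at stood alone: LY BIL 2 had 7.08, and the other lines 4.05 to 4.99. Its partner GarAffx.19282.1.S1_x_at had 5.78 in LY BIL 2 and 4.05 to 4.74 in the others, so both probe sets of the number were highest in the same line. Deposited signals in LY BIL 2 were 184.0 and 58.5, against at most 25.5 and 15.9 in the other lines.

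Each line was also set against the mean of the other 5 BILs, and HY BIL 3 and LY BIL 1 had the most members at least 2-fold away. LY BIL 1 was at least 2-fold above the mean of the other 5 BILs for 9 of them and below it for 0, where 2.99% and 1.84% of the other probe sets were. HY BIL 3 was at least 2-fold below that mean for 11 and above it for 0, where 3.26% and 1.36% of the others were. HY BIL 1 was 2-fold lower for 5 (7.25%, against 1.45% of the others) and higher for 0 (against 0.714%), and HY BIL 2 was higher for 1 (1.45%, against 0.555%) and lower for 0 (against 0.618%). LY BIL 2 was higher for 6 (8.7%, against 1.89%) and lower for 1 (1.45%, against 1.79%). LY BIL 3 was higher for 2 and lower for 2 (2.9% each, against 3.87% and 3.1%). By the median size of the departure the order differed: it was 0.41 in LY BIL 3, 0.31 in LY BILs 1 and 2 and HY BIL 3, and 0.20 and 0.21 in HY BILs 1 and 2. Over the other probe sets LY BIL 3 was also the largest, at 0.31. There LY BILs 1 and 2 had 0.26 and 0.25, and HY BILs 1, 2 and 3 had 0.24, 0.21 and 0.29. As deposited, the array medians of LY BILs 1 and 2, with departures mostly upward, were 36.3 and 30.5, those of HY BILs 1 and 3, with departures downward, were 13.5 and 15.7, and those of HY BIL 2 and LY BIL 3 were 26.0 and 13.2. The part of brightness in these departures was not tested. GarAffx.9898.1.S1_s_at had r = 0.97 with the array median after normalization. It had 10.41, 11.11 and 10.67 in HY BILs and 11.39, 11.11 and 10.65 in LY BILs.

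Against the parents, LY BIL 1 was at least 2-fold above the HY parent for 17 of the 69 and below it for 2, where 5.9% and 3.33% of the other probe sets were. LY BIL 2 was above it for 12 and below for 1, where 3.63% and 1.38% were. LY BIL 3 was above it for 7 (10.1%, against 5.32%) and below for 1 (1.45%, against 4.72%). HY BIL 2 was above it for 8 (11.6%, against 2.4%) and below for 0 (against 1.06%). HY BIL 1 was above it for 3 (4.35%, against 1.78%) and below for 0 (against 1.45%). HY BIL 3 was 2-fold above the HY parent for 0 (against 2.02% of the others) and below it for 1 (1.45%, against 1.59%), and it was 2-fold below the LY parent for 11 (15.9%, against 5.06%). LY BIL 1 was 2-fold above the LY parent for 13 (18.8%, against 7.55%) and below it for 1 (1.45%, against 7.46%). LY BIL 2 was above it for 10 (14.5%, against 7.56%) and below for 5 (7.25%, against 7.62%). HY BIL 1 was above it for 3 (4.35%, against 4.86%) and below for 8 (11.6%, against 5.28%). HY BIL 2 was above it for 3 and below for 3 (4.35% each, against 5.6% and 6.04%). LY BIL 3 was above it for 1 (1.45%, against 4.06%) and below for 2 (2.9%, against 2.8%). HY BIL 3 was above the LY parent for 1 (1.45%, against 4.78%). All 6 lines lay above both parents for 1 member, GarAffx.37328.1.S1_x_at (1.45%, against 2.53% of all), and below both for 3, GarAffx.21624.1.S1_s_at, GarAffx.21676.1.S1_s_at and GarAffx.37328.1.A1_at (4.35%, against 3.43%).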

How the data were processed

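Fibre RNA of 8 cotton lines was hybridized to 1 Affymetrix array each. The deposited table holds 1 linear intensity for each probe set and array. Per the submitters' processing notes the authors used GCOS and MAS5, and versions, scaling target and pooling are not given in the sources used here. All 8 columns were used.

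Control probe sets (AFFX) were left out, intensities were transformed as log2(value + 16) and quantile-normalized over the 8 arrays, with no filter. Tests across all 24029 probe sets were limma's (lmFit, then eBayes with the prior variance following intensity; limma 3.58.1, R 4.3.3). They were two-sided, adjusted after Benjamini-Hochberg and called under 0.05. The procedure was also run on simulated data, independent normal noise with the fitted variances. That noise holds no effect of array brightness or RNA quality, so it does not show how the test performs on these arrays. Percentages of all probe sets use the same rule as the count beside them. The members and lists were chosen with earlier results of these data known. Probe sets were named by level, by spread, by parental difference, and, between groups, by lowest p among those without overlap (up to 2 per direction); members of counts of 5 or fewer, of the 4-fold ranges and of pairs were named after their values were seen. Same-numbered lines do not come from a shared source, and their deviations had r = -0.20, 0.16 and 0.46. P-values measure only the spread between these samples. Alternatives were other pseudocounts, deposited values without normalization, median centring, cyclic loess, no trend, a filter on low values, plain probe sets alone, the line number as a block and each array left out.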

Additional observations from a re-analysis of the deposited data

Results flagged for a closer look

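In 140 groups of 4 arrays (3 BILs and the parent of one yield class, for each of the 69 probe sets and for their median), 4 had an array far from the other 3 by Dixon's criterion, and chance alone flags about 1 in 20 such groups. GarAffx.38922.1.S1_s_at stood high in HY BIL 2, at 10.94 against 9.18 to 9.30 in the other high-yielding plants. GarAffx.19281.1.S1_at stood low in HY BIL 2, at 7.79 against 8.67 to 8.81. GarAffx.15940.5.S1_s_at stood low in LY BIL 1, at 11.33 against 11.61 to 11.65 in the other low-yielding plants. GarAffx.37330.1.A1_s_at, near the bottom of the scale, stood low in LY BIL 3, at 4.03 against 4.51 to 4.59. There was no probe set for which the BIL groups lay apart one way and the parents at least 2-fold the other way.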

How the results depend on the processing

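Under every alternative run, limma called 0 G. arboreum probe sets after adjustment in either contrast (6 and 14 at an unadjusted p under 0.05 as reported); cyclic loess, 1 probe set per sequence number and the 2-fold position were chosen after seeing the data. Of the BIL contrast, the count of 3 (2-fold, unadjusted p under 0.05) was 6 when the pseudocount was 1, 5 with median centring, 0 without the intensity trend and 1 among plain _at probe sets, where 11 members remained to be tested. With the line number as a replicate block there were 6; the numbers do not pair the lines by source. Leaving out single arrays gave 0 to 11. The 7 members of the contrast with the parents became 4 without the lowest 40% of probe sets, 4 without the trend and 1 among plain probe sets, and 3 to 8 without single arrays. For both contrasts, shares of all probe sets at this call are not given for each alternative, so these counts are not set against the array. The 12 members at least 2-fold apart between the parents became 21 with a pseudocount of 1, 6 with 64 and 2 among plain probe sets. With a pseudocount of 1, 13 were lower in the HY parent (18.8%, against 18.4% of all) and 8 higher (11.6%, against 17.7%). With 64, 6 were lower (8.7%, against 2.6% of all) and 0 higher (against 2.2%). The share of all plain probe sets is not given here. The excess level of 2.41 was 3.08 and 1.54 with pseudocounts of 1 and 64, which stretch or compress low values by construction, 3.21 with 1 probe set per sequence number and 0.16 among plain probe sets; it was 2.33 to 2.47 without single arrays. The difference in position of 1.09, resting on 2 members, turned to -0.05 with a pseudocount of 1, where 9 members were 4-fold apart, and was 0.69 to 1.31 without single arrays. No position could be computed on the deposited values, with a pseudocount of 64, among plain probe sets or at 8-fold, since 0 members were that far apart. The median difference between BIL groups relative to the others, -0.05, was -0.16 to -0.02 without single arrays. The causes were not tested except where the construction is named.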
